A study of Mus musculus with 24 samples.

Results

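The difference between 2 mouse lines, TREM2-R47H+/+ and TREM2-WT+/+, was estimated in the cortex as 1 effect common to both treatments. Its members were all libraries of the series, 24 of 24, chosen by genotype label: 12 R47H libraries (6 from induced and 6 from control mice) against 12 WT libraries (6 induced and 6 control), with treatment as a second, additive term. All mice carried 1 copy of Cx3cr1CreER, a tamoxifen-dependent Cre recombinase expressed from the promoter of the microglial gene Cx3cr1, on a background labelled C57BL/6. Induced mice received tamoxifen, given so that microglia would express TREM2, and control mice received corn oil. The labels give neither age nor litter nor the place of the TREM2 insertion, so the R47H allele, the insertion and any other genomic difference between the lines cannot be told apart here.

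TREM2 is a surface receptor that binds lipids and lipoproteins and signals through the adaptor encoded by Tyrobp, and in the brain it is made by microglia, the local macrophages. R47H is an amino-acid variant of its ligand-binding domain that raises the risk of Alzheimer's disease in people. Signalling through this pair supports the survival, lipid handling and phagocytosis of microglia.

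Bulk RNA was sequenced to 27933505 to 56082520 counted reads per R47H library and 33742812 to 46904559 per WT library. Levels are given as CPM, read counts scaled to a common library total. Of 43346 genes in the table, 19678 passed the filter on low counts and were tested. The marker of cortical excitatory neurons Slc17a7 was detected in all libraries at 281 to 349 CPM per kilobase, and the choroid plexus marker Ttr ranged from 4.22 to 463 CPM per kilobase. The rRNA-like share of counts, a sign of library quality, averaged 17.04% in R47H and 18.27% in WT libraries of induced mice, and 20.33% in R47H and 15.9% in WT libraries of control mice. The treatments ran opposite ways, so a pooled test (two-sided permutation within treatment, p = 0.22) does not show that the lines were alike. In 3 of 6 libraries of each group Y-linked genes were above Xist, which is the design's number of males. WT_induced replicate 6 was far above the others in immune genes, and replicates 1 and 4 of that group were above the other WT libraries in several of them. In bulk tissue, fewer cells of a type and less RNA per cell cannot be told apart. The libraries of a group came from separate mice, 3 male and 3 female per group by the study's design. The labels give no litter, so that litters or cohorts and the lines cannot be told apart.

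Mouse Trem2 (chr17:48346401-48354147, mm10) was at 6.01, 6.77 and 9.08 CPM in R47H libraries (lowest, median and highest of 12) and at 5.41, 6.35 and 9.32 CPM in WT libraries, so that 7 of 12 WT libraries lay inside the R47H range and the highest WT value was that of WT_induced replicate 6. The means were 7.26 ± 1.0 CPM in R47H and 6.51 ± 1.0 CPM in WT (SD, n = 12 each). The log2 difference was 0.15 (SE 0.08), which did not pass over all genes (edgeR quasi-likelihood test, adjusted p = 0.195). Without WT_induced replicate 6 the difference was 0.22 and passed (edgeR adjusted p = 0.00937), so that 1 library decides the call. A permutation test of Trem2 alone with all libraries gave p = 0.0556. The edgeR difference was 0.00 in induced mice, where it was 0.13 without WT_induced replicate 6 (adjusted p = 0.419), and 0.30 in control mice (adjusted p = 0.0302 in a fit of those 12 libraries). The labels do not say from which species the TREM2 construct came, and mouse Trem2 counts may miss its reads, so that the induction cannot be read from this gene. The adaptor gene Tyrobp was at a log2 difference of -0.02 (SE 0.11) and was not called.

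R47H cortex differed from WT cortex in 2685 of 19678 tested genes, or 13.6%, at a Benjamini-Hochberg adjusted p below 0.05. Of these, 1296 genes (6.59% of tested) were higher and 1389 (7.06%) lower in R47H. Most differences were small: the median size among called genes was 0.17 on the log2 scale, or 1.12-fold, with quartiles of 0.11 and 0.33. Only 131 called genes differed by more than 2-fold, 53 of them higher and 78 lower in R47H. Protein-coding genes were called in 15.3% of cases (2401 of 15739) and genes of other types in 7.21% (284 of 3939). When the mean of the striatal marker list described below was added as a covariate, 1026 genes were called, 573 higher and 453 lower, and 30.6% of the 2685 kept their call. That covariate is itself made of genes lower in R47H. Scaled by library totals alone, 38.1% of 1796 called genes were higher in R47H, against 48.3% with the scaling used here.

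The lowest p among genes with a proper symbol belonged to a pair of neighbours on chromosome 17. Hmga1, which encodes a chromatin protein that binds AT-rich DNA (chr17:27556620-27563674), was at 8.80, 12.5 and 13.7 CPM in R47H libraries (lowest, median, highest) and at 5.41, 5.94 and 7.0 CPM in WT libraries. Every R47H library was above every WT library, and the log2 difference was 1.0 (SE 0.06, edgeR adjusted p = 1.87e-12). Nudt3, a phosphohydrolase of inositol pyrophosphates encoded next to Hmga1, ran the other way, at 178, 182 and 199 CPM in R47H and 225, 230 and 241 CPM in WT libraries (log2 -0.31, SE 0.02, adjusted p = 2.35e-11). Atp6v0c, the proteolipid subunit of the proton pump that acidifies lysosomes, was at 102, 127 and 136 CPM in R47H and 67.9, 70.7 and 98.4 CPM in WT libraries (log2 0.74, SE 0.06, adjusted p = 1.14e-08). Kat2b, a histone acetyltransferase, was at 22.6, 24.8 and 26.3 CPM in R47H and 34.2, 45.3 and 51.7 CPM in WT libraries (log2 -0.82, SE 0.07, adjusted p = 1.14e-08). Its neighbour Rab5a, the GTPase of early endosomes, was lower in R47H as well, by 0.75 on the log2 scale. Among the R47H libraries both genes were tightly grouped, while the WT libraries spread widely, Rab5a from 106 to 174 CPM.

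Genes with low p on other chromosomes included several with known roles in neurons. Scg5, the chaperone of a prohormone convertase in secretory granules (chromosome 2), was at 139, 146 and 152 CPM in R47H and 105, 118 and 128 CPM in WT libraries, without overlap (log2 0.32, SE 0.02, adjusted p = 2.79e-10). Hapln4, a link protein of perineuronal nets (chromosome 8), was at 77.3, 86.6 and 107 CPM in R47H and 120, 132 and 139 CPM in WT libraries (log2 -0.54, SE 0.05, adjusted p = 2.70e-08). Adar, the adenosine deaminase that edits double-stranded RNA (chromosome 3), was at 156, 172 and 185 CPM in R47H and 199, 209 and 224 CPM in WT libraries (log2 -0.28, SE 0.02). These groups did not overlap either. Further genes of the same rank that fell were Bex2 (-0.27) and its paralogue Bex1 (-0.34) on the X chromosome, the heparan sulfate enzyme gene Extl2 (-0.23), the Integrator subunit gene Ints7 (-0.58), the endosomal membrane protein gene Lamp5 (-0.29) and the phosphatase gene Dusp14 (-0.39). Also lower were the lipid transporter gene Abca3 (-0.34) and the mitochondrial methylmalonyl-CoA mutase gene Mut (-0.40), both on chromosome 17. Higher in R47H were Ankrd45 (0.33) on chromosome 1 and, on chromosome 17, the cell-cycle kinase gene Pkmyt1 (0.70) and the ribosome maturation kinase gene Riok2 (0.30). Tsr2 on the X chromosome rose as well (0.23), but 30.2% of its exon bases lie in another gene, and its reads cannot be assigned by strand. Bex1 and Bex2 are near-identical in part, so reads could be shared between them.

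**Figure D1:**
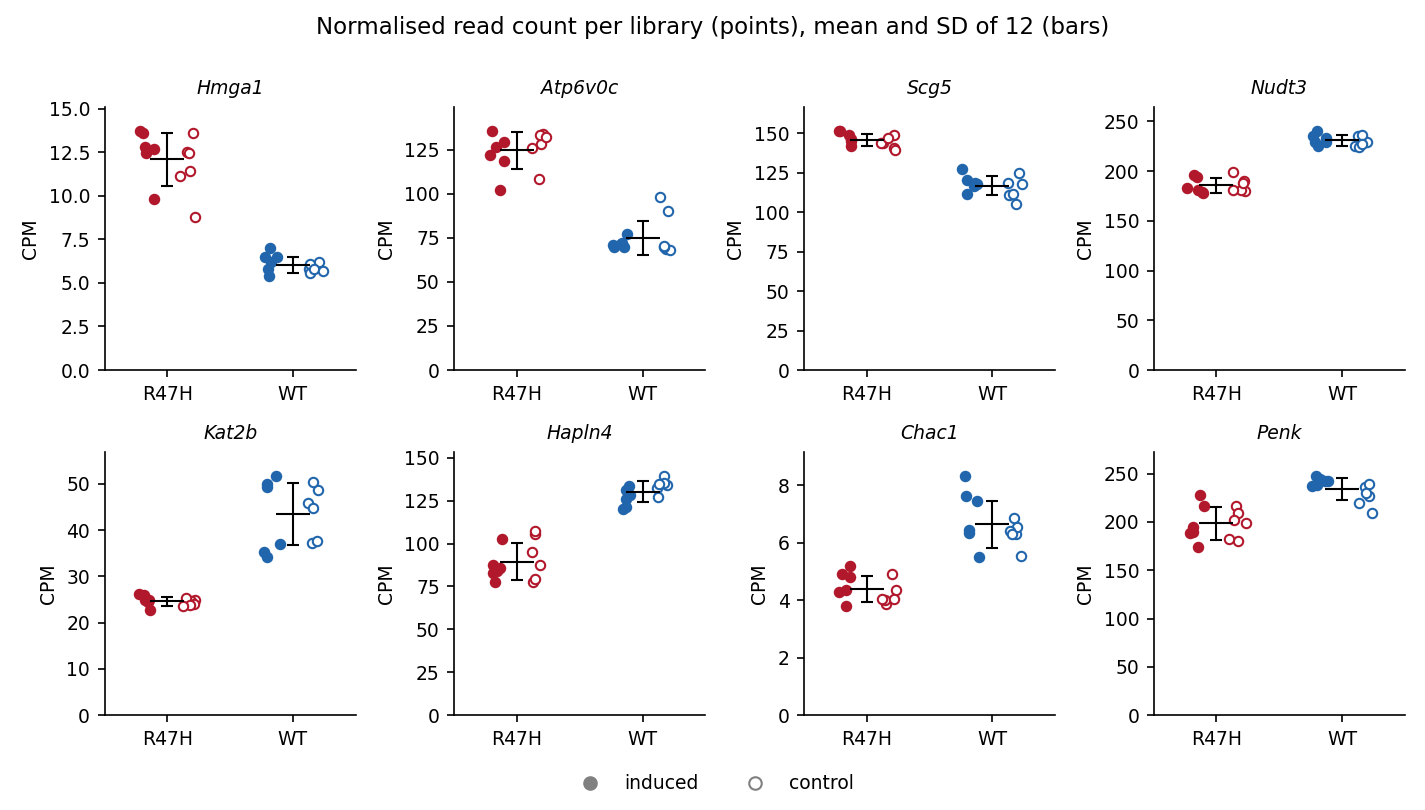
Normalised read count (CPM, linear axes from 0) of 8 genes in the 24 libraries, R47H left and WT right, with filled points for induced and open points for control mice and bars for the mean ± SD of 12. The lines do not overlap for Hmga1, Atp6v0c, Scg5, Nudt3, Kat2b, Hapln4 and Chac1, whereas Penk overlaps between 210 and 228 CPM.

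Some called genes were close to 0 in WT libraries. Guca1b, which encodes a calcium sensor of photoreceptors and lies 0.961 Mb from Trem2, had 123 counts over the 12 R47H libraries and 1 count over the 12 WT libraries, a ratio of 129 (exact 95% interval 22.7 to 5130). Klk1b22, a kallikrein gene on chromosome 7 with near-identical paralogues, had 593 counts in R47H and 1 count in WT, a ratio of 621 (exact 95% interval 111 to 24600). These intervals cover counting error only. All 12 R47H libraries held counts of Klk1b22, but 1 of them lay inside its WT range. Among genes of at least 1 CPM, the largest rises with a proper symbol were Sytl1 (1.46), Gpr115 (1.38), Pla2g4e (1.36), Mamdc2 (1.30), Hddc3 (1.30) and Slc5a5 (1.13). The largest falls were H2-Q6 (-3.40), H2-Q7 (-3.25), Prss41 (-2.78), Tagap (-1.98), Iigp1 (-1.83) and Bfsp2 (-1.74). Reads of H2-Q6 and H2-Q7 can be split between near-identical copies. H2-Q6 was at 4.01 to 24.3 CPM in WT_induced replicates 1, 4 and 6 and at most at 1.4 CPM in the other 9 WT libraries, and all 12 R47H libraries lay inside the WT range. H2-Q7 was at 2.49 to 19.1 CPM in the same 3 libraries and at most at 1.22 CPM in the other 9. The log2 difference without replicate 6 was -2.34 for H2-Q6 and -2.14 for H2-Q7, and in control mice alone -1.62 and -1.15. Iigp1 is taken up with the interferon genes. The gene with the lowest p of all, RP23-474A1.1 on chromosome 1 (chr1:177808550-177962233), was at 3.18 to 8.57 CPM in R47H and at 0.00 to 0.109 CPM in WT libraries. Gm16432, 0.175 Mb away, was at 7.32 to 13.4 CPM in R47H and 2.70 to 3.87 CPM in WT libraries. Both pairs of groups were apart in every library.

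Called genes were spread over all chromosomes but Y, and chromosome 17 held the highest share. On chromosome 17, 246 of 935 tested genes were called, or 26.3%, with 118 higher and 128 lower in R47H. Chromosome 17 thus held 9.16% of all calls and 4.75% of all tested genes. Chromosomes 9 (18.2%), 1 (17%), 7 (16.6%), 4 (15.5%) and 16 (14.6%) were also above the share of 13.6% over all tested genes. The lowest shares of the other autosomes were on chromosomes 15 (9.37%) and 12 (7.99%), and 0 of 6 tested Y-linked genes were called by edgeR. Without chromosome 17 the called share was 13% (2439 of 18743).

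**Figure D2:**
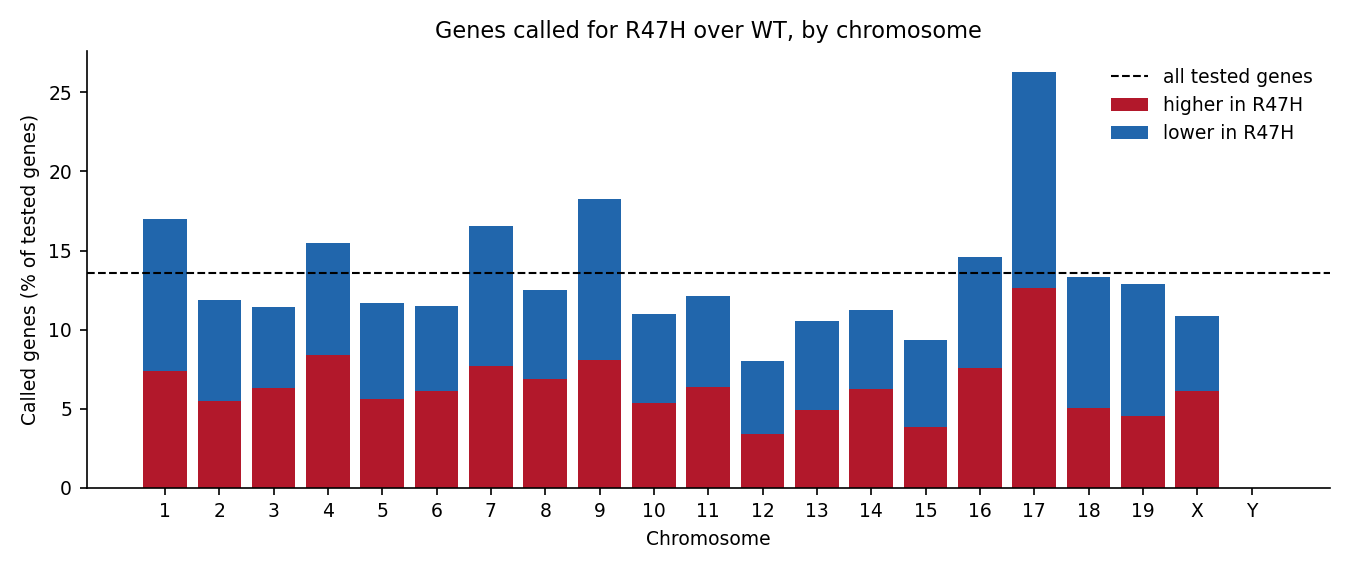
Percentage of tested genes called higher (red) and lower (blue) in R47H than in WT on each chromosome, with a dashed line at 13.6%, the share over all tested genes. Chromosome 17 reaches 26.3%, and chromosomes 9, 1, 7, 4 and 16 are the others above the line.

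Complete separation of the lines was rarer and more concentrated. In 121 tested genes (0.615%) the 12 R47H and 12 WT libraries did not overlap, 51 (0.259%) with R47H above and 70 (0.356%) with R47H below, and all 121 were called. Chromosome 17 held 34 of them (28.1%), 16 above and 18 below. Chromosome 1 held 20 (16.5%), chromosome 2 held 11 and chromosome 7 held 8. They lay on 19 chromosomes in all.

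Called genes were also unevenly placed within chromosomes. The genome was divided into windows of 10 Mb by gene start, and a window was named where at least 5 genes and at least 15% of its tested genes were called. Of 273 windows, 80 met this rule. They held 53.2% of the calls and 33.5% of the tested genes, and 9.60% of the tested genes outside them were called. Since the rule used the calls, these shares describe the windows and test nothing. The first 10 Mb of chromosome 14 had the highest share (13 of 28, 46.4%), followed by the first 10 Mb of chromosome 17 (22 of 50, 44.0%), with Tagap1 at 1.05. Next came 170 to 180 Mb of chromosome 1 (49 of 122, 40.2%, of which 32 were lower), where the coat protein gene Copa (-0.31) and the actin-nucleating formin gene Fmn2 (-0.21) fell. At 50 to 60 Mb of chromosome 6, 24 of 61 genes were called (39.3%) and 19 of them were higher, while the 3 protein-coding genes of lowest p there, Osbpl3 (-0.37), Wipf3 (-0.21) and Gars (-0.16), were lower.

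On chromosome 17 the calls did not form a single block around Trem2. Within 5 Mb of the Trem2 start 36 of 114 tested genes were called (31.6%), at 5 to 10 Mb 25.3%, at 10 to 20 Mb 19.1%, at 20 to 30 Mb 32.0% and at 30 to 50 Mb 26.8%. All 5 shares were above 13.6%. The window that holds Trem2, at 40 to 50 Mb, had 38 of 109 genes called (34.9%), 25 of them higher, among them Enpp4 (0.41) and Gpr115. At 20 to 30 Mb, 75 of 233 genes were called (32.2%), including Hmga1, Nudt3, Atp6v0c and Pkmyt1. Glo1, the glyoxalase gene of this chromosome, was at 32.2, 34.2 and 55.5 CPM in R47H (lowest, median, highest) and at 64.5, 70.0 and 77.3 CPM in WT libraries. These groups were apart as well. Of 10 windows on the chromosome, 8 met the naming rule.

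**Figure D3:**
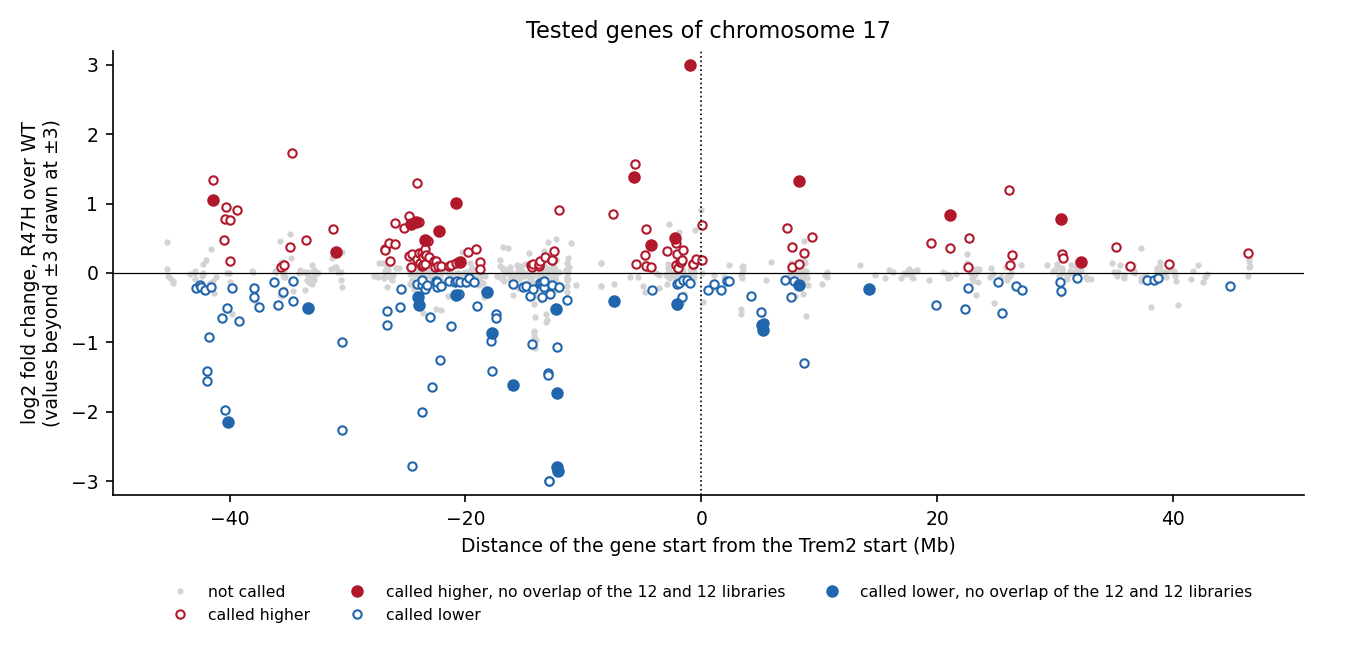
Log2 fold change of R47H over WT for the 935 tested genes of chromosome 17 against the distance of the gene start from that of Trem2 in Mb, with values beyond 3 drawn at the edge. Called genes (coloured) and the 34 genes without overlap between the lines (filled) lie on both sides of Trem2 and out to 30 Mb and more from it.

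The line difference was also fitted in each treatment alone, and these fits share no library. In induced mice 826 of 18969 tested genes were called (4.35%) and in control mice 1001 of 18939 (5.29%). Of 820 genes called in induced mice and tested in both, 781 (95.2%) had the same sign in control mice and 598 also had an unadjusted p below 0.05 there. Of 996 called in control mice, 909 (91.3%) had the same sign in induced mice and 612 an unadjusted p below 0.05. Over all 18744 genes tested in both, 64.7% had the same sign, and the 2 sets of log2 differences correlated at 0.44 (Pearson) and 0.35 (Spearman) across genes, which are not independent replicates. Called in both with the same sign were 349 genes, 42.6% of those called in induced and 35% of those called in control mice, and 0 with opposite signs. Of the 349, chromosome 17 held 75, chromosome 1 held 40, chromosome 7 held 30 and chromosome 9 held 27. Hmga1 was at 1.0 in induced and 1.0 in control mice, Scg5 at 0.31 and 0.33, Nudt3 at -0.33 and -0.30, and Chac1 at -0.60 and -0.59.

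No gene was called for a difference of the line effect between treatments (edgeR, 0%, lowest adjusted p = 0.303; 1562 genes at an unadjusted p below 0.05). DESeq2 called 3 genes, Glra1, Gm10557 and Pcdh17, and limma-voom called 0. For Glra1, a glycine receptor subunit gene, the log2 line difference was -0.29 in induced and 0.87 in control mice. For the protocadherin gene Pcdh17 it was -0.17 in induced and 0.02 in control mice. A gene not called for this term is not shown to have equal effects in both treatments.

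Some called genes took separate levels among the libraries of 1 line. The count of such genes used a rule chosen after the data had been seen: a gap of at least 0.5 on the log2 scale between neighbouring libraries, with at least 2 libraries on each side and a mean of at least 1 CPM. It held for 38 of 2405 called genes in R47H (1.58%) and 32 in WT (1.33%), and for 1.12% and 1.17% of genes not called. Pla2g4e, a phospholipase gene on chromosome 2, was at 8.64 to 11.7 CPM in 5 R47H libraries and at 29.7 to 32.3 CPM in the other 7, with none between. The 12 WT libraries were at 7.34 to 9.99 CPM. The 5 lower R47H libraries came from both treatments, as replicates 4 and 5 of induced and 2, 3 and 5 of control mice. Hddc3 on chromosome 7, a nucleotide hydrolase gene with 76.3% of its exon bases shared with another gene, was at 7.37 and 7.65 CPM in 2 R47H libraries and at 14.7 to 25.5 CPM in the other 10, against 6.57 to 8.12 CPM in WT.

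Some genes separated the same libraries, both neighbours and genes on different chromosomes. The 2 R47H libraries lowest in Hddc3 were also the 2 lowest in Folh1, which lies 6.38 Mb away and encodes a glutamate carboxypeptidase. They were the 2 lowest in C030014I23Rik on chromosome 9 as well. The 2 R47H libraries highest in Tagap on chromosome 17 were also the 2 highest in Gm15487 on chromosome 6. The other pairs given here were picked among neighbours. Without a gap of that size, the 4 R47H libraries lowest in Lpl, the lipoprotein lipase gene on chromosome 8 (15.5 to 18.4 CPM), were the 4 highest in Slc5a5, an iodide transporter gene 2.0 Mb away (12.7 to 15.2 CPM). On chromosome 11 the 6 R47H libraries with 1.66 to 2.37 CPM of Krt12 were the 6 with 0.0356 to 0.293 CPM of Krt20, both keratin genes, and 54.4% of the exon bases of Krt12 are shared with another gene. The other 6 R47H libraries were at 8.77 to 17.3 CPM of Krt12, within or near the WT range of 9.66 to 19.6 CPM. On chromosome 9 the ribosomal protein gene Rpl29 was at 9.15 and 9.88 CPM in the 2 R47H libraries that were also lowest in Ppm1m, 0.235 Mb away. The WT libraries fell into levels of Rpl29 as well, 3 control libraries at 18.5 to 21.3 CPM and the other 9 at 33.2 to 37.1 CPM. For such genes the mean and SD of a line describe a mixture of levels. What sets them was not tested.

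**Figure D4:**
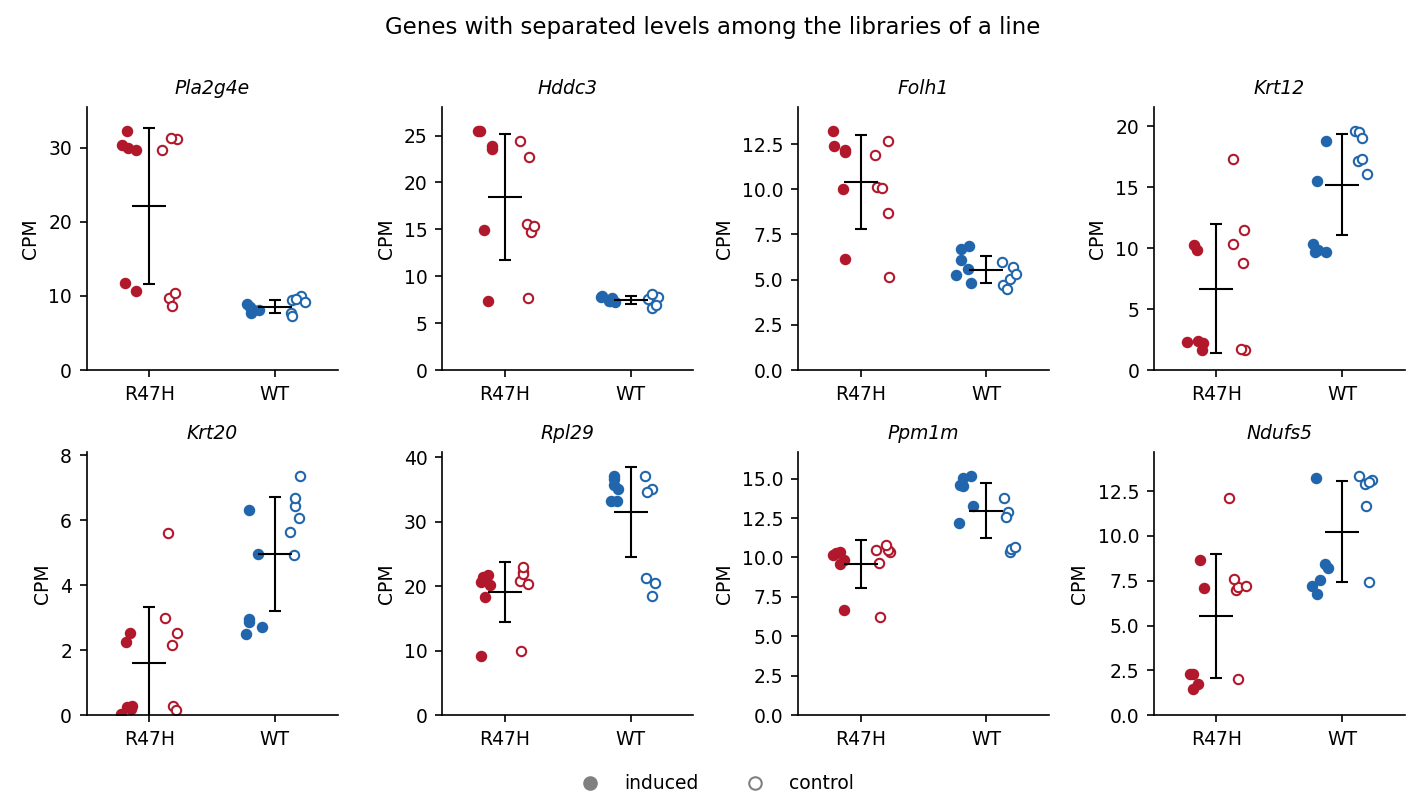
Normalised read count (CPM, linear axes from 0) of 8 genes in R47H (left) and WT (right) libraries, with filled points for induced and open points for control mice and bars for the mean ± SD of 12. In R47H, Pla2g4e falls into 5 libraries up to 11.7 CPM and 7 from 29.7 CPM, and the 12 WT libraries are at 7.34 to 9.99 CPM.

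Gene groups are described by their members' calls, against 13.6% of all tested genes called and a median log2 difference of all tested genes of -0.0006. Of 49 lists, 48 had tested members and 23 had a called share above 13.6%. In 8 lists no member was called by edgeR, the mitochondrial genome among them, which had no tested gene. Genes marking medium spiny neurons, the projection neurons of the striatum beneath the cortex, had the highest share. Of 19 tested members 13 fell, 0 rose (68.4% called) and 18 of 19 were below 0, with a median of -0.16. Pde10a, a phosphodiesterase of these neurons on chromosome 17, was at 265, 276 and 297 CPM in R47H and 282, 325 and 346 CPM in WT libraries (log2 -0.21, SE 0.03, adjusted p = 4.92e-06). Penk, the enkephalin precursor gene, was at 174, 197 and 228 CPM in R47H and 210, 238 and 248 CPM in WT libraries (log2 -0.24, SE 0.04). The sodium channel subunit gene Scn4b (-0.31), the dopamine receptor gene Drd2 (-0.21), the retinoic acid receptor gene Rarb (-0.16), 38.4% of whose exon bases are shared with another gene, Rgs9 (-0.22) and Adcy5 (-0.16), which encode parts of dopamine signalling, also fell. The lines overlapped in every one of these genes.

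The summed level of the striatal list was 2338, 2500 and 2679 CPM in R47H libraries and 2572, 2814 and 2952 CPM in WT libraries, so that the list was lower in R47H in both treatments. The median was -0.14 in induced and -0.15 in control mice. Outside the named windows 3 of 9 members fell. How much striatum each sample held was not tested. Of the hippocampal markers 5 of 17 fell, among them the cell-death regulator gene Bok (-0.33), and 3 rose, with a median of -0.0018, and the summed list was 773 to 815 CPM in R47H and 812 to 860 CPM in WT libraries. Of the thalamic markers 1 of 18 fell, and of the olfactory bulb and ventricle markers 0 of 15 were called by edgeR.

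Targets of ATF4, the transcription factor of the amino-acid stress response, were the second highest list. ATF4 is made when amino acids run short or misfolded protein accumulates, and it turns on enzymes of amino-acid synthesis, transport and tRNA charging. Of 28 tested members 14 fell and 1 rose (53.6% called), with a median of -0.12. Chac1, which degrades glutathione, was at 3.81, 4.32 and 5.17 CPM in R47H and 5.52, 6.42 and 8.32 CPM in WT libraries, without overlap (log2 -0.60, SE 0.06, adjusted p = 9.76e-08). Asns, asparagine synthetase, was at 68.8, 72.9 and 77.7 CPM in R47H and 79.9, 83.5 and 92.1 CPM in WT libraries, also without overlap (log2 -0.20, SE 0.02, adjusted p = 8.73e-07). Mthfd2, a mitochondrial enzyme of one-carbon metabolism, was at 3.78, 4.61 and 4.95 CPM in R47H and 5.18, 6.51 and 8.17 CPM in WT libraries (log2 -0.53, SE 0.07). Atf4 itself fell by 0.25 on the log2 scale, the amino-acid transporter gene Slc7a3 by 0.42, the pseudokinase gene Trib3 by 0.51 and the tRNA synthetase genes Cars and Gars by 0.25 and 0.16. Ddit4, an inhibitor of mTOR signalling, was the member that rose (0.27, SE 0.08, adjusted p = 0.0344). The list median was -0.15 in induced and -0.10 in control mice, and 10 and 9 members were called in those fits alone. Outside the named windows 9 of 19 members fell.

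The promoters of Chac1, Asns and Gars hold the amino-acid response element as searched here, TGATGNAA on either strand, between 250 bases before and 50 bases after the start. The letters occur in 2.82% of the promoters of tested genes, of which 13151 of 19678 (66.8%) had a RefSeq entry, too few to set shares of lists beside each other. Of 22 tested list members with an entry 8 hold a match, and of 9 called lower 4 do. The stretches are shown, in capitals where they match, for Chac1, Asns and Gars because these were called lower and hold a match before the start. Mthfd2, Trib3 and Slc7a3 fell by more than Asns and Gars. They are RefSeq sequences of build GRCm38.p6, for Chac1 from chr2:119351024-119351081 on the plus strand, for Asns from chr6:7693210-7693257 on the minus strand and for Gars from chr6:55037946-55038000 on the plus strand. The match is a description of the letters and shows no binding.
Chac1: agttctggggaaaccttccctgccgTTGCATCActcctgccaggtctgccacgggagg
Asns: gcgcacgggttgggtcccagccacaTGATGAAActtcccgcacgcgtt
Gars: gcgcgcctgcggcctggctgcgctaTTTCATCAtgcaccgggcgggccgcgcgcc

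Genes of neuronal excitability and of the postsynaptic side of excitatory synapses were mostly lower in R47H where they were called, against 7.06% of all tested genes called lower. Of 41 tested glutamate receptor and postsynaptic genes 13 fell and 2 rose (36.6% called, median -0.07). The scaffold genes Homer2 (-0.21), Shank2 (-0.19), Shank3 (-0.17) and Dlg4 (-0.13), the AMPA receptor auxiliary gene Cacng3 (-0.16) and the NMDA receptor subunit genes Grin2b (-0.16) and Grin1 (-0.12) fell, while the subunit gene Grin3a rose (0.17). Homer2 was at 78.2, 87.2 and 102 CPM in R47H and 98.1, 102 and 110 CPM in WT libraries, so that the groups overlapped between 98.1 and 102 CPM. Of 53 tested genes of the voltage-gated ion channel list 18 fell and 1 rose (35.8% called, median -0.05). Cacna1i, a low-threshold calcium channel, was at 133, 153 and 159 CPM in R47H and 160, 168 and 178 CPM in WT libraries, just without overlap (log2 -0.14, SE 0.02, adjusted p = 8.77e-05). The potassium channel genes Kcna1 (-0.14) and Kcnma1 (-0.14) fell. The exception was Kcnj10 (chr1:172341210-172374085), an inward-rectifying potassium channel of astrocytes that the list holds although it is not voltage-gated. It lies in the named window at 170 to 180 Mb of chromosome 1. Its level was 211, 253 and 293 CPM in R47H and 172, 194 and 236 CPM in WT libraries (log2 0.35, SE 0.06). Scn4b belongs to this list and to the striatal list. With the striatal list mean as a covariate 3 postsynaptic and 5 channel genes were called lower. Of 36 tested gene IDs of the presynaptic list 7 fell and 2 rose, with the vesicle priming gene Unc13a at -0.16 and the active-zone gene Pclo at -0.13 under 1 of its 2 gene IDs, while the other ID, at 0.17, was not called.

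Among neurotrophins, their receptors and related peptides 4 of 12 tested genes fell and 0 rose (33.3% called, against 13.6% of all tested genes). The list median was -0.22 in induced and -0.03 in control mice, where 4 and 3 members were called in the fits alone. For 4 of 12 members the difference between treatments had an unadjusted p below 0.05 (edgeR), against 7.94% of all tested genes. Bdnf, the brain-derived neurotrophic factor gene, was at 12.9, 16.4 and 18.6 CPM in R47H and 17.4, 22.5 and 27.2 CPM in WT libraries, with an overlap between 17.4 and 18.6 CPM (log2 -0.46, SE 0.06, adjusted p = 4.29e-06). Vgf, a neurotrophin-induced peptide precursor, was at 120, 139 and 163 CPM in R47H and 157, 182 and 197 CPM in WT libraries (log2 -0.36, SE 0.04, adjusted p = 2.31e-06). The receptor genes Ntrk3 (-0.17) and Gfra1 (-0.12) fell too, although Gfra1 was at -0.12 without WT_induced replicate 6 and was then not called. The dense-core granule list held both directions, with Scg5 higher and Vgf and Scg3 (-0.12) lower. Of 26 excitatory neuron and cortical layer markers 5 fell and 1 rose, Lamp5 and the calmodulin regulator gene Pcp4 (-0.18) among those that fell, and the list's median was -0.01.

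Interferon-stimulated genes, which antiviral signalling turns on, were lower in R47H, and the size of the difference rested on up to 3 libraries of induced WT mice. Of 30 tested members 10 fell and 0 rose (33.3% called), 29 of 30 were below 0 and the median was -0.72. It was -1.07 in induced mice, -0.55 there without WT_induced replicate 6 and -0.21 in control mice. Irf7, the transcription factor that amplifies the response, was at 0.543, 0.873 and 1.53 CPM in R47H and 0.738, 1.57 and 12.4 CPM in WT libraries (log2 -1.42, SE 0.39, adjusted p = 0.0162). Ifit1, a sensor of viral RNA, was at 1.41, 1.83 and 2.93 CPM in R47H and 2.08, 3.11 and 13 CPM in WT libraries (log2 -1.04, SE 0.28, adjusted p = 0.0133). Ifit1 was at 5.26 to 13 CPM in WT_induced replicates 1, 4 and 6 and at most at 3.68 CPM in the other 9 WT libraries. Without replicate 6 the difference was -0.92 for Irf7 and -0.76 for Ifit1, and in control mice, whose fit holds none of these 3 libraries, -0.70 (adjusted p = 0.0491) and -0.56 (adjusted p = 0.122). Oas1a (-1.59), Usp18 (-1.22), Isg15 (-0.84) and Ifit3 (-0.73) also fell, and without replicate 6 they were at -1.19, -0.76, -0.48 and -0.49, all 4 still called. Without WT_induced replicate 6, 12 of 30 members fell, 1 rose and the median was -0.38. The summed list was at 131 to 160 CPM in R47H libraries, and in WT libraries at 142 to 446 CPM in induced mice and 141 to 168 CPM in control mice.

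The interferon-inducible GTPases, which attack vacuoles of intracellular pathogens, showed the same pattern. Of 14 tested members 6 fell and 0 rose (42.9% called), all 14 were below 0 and the median was -1.36, with -2.16 in induced mice, -1.26 there without WT_induced replicate 6 and -0.21 in control mice. Gbp3 was at 1.66, 2.96 and 3.71 CPM in R47H and 2.92, 4.45 and 26.5 CPM in WT libraries (log2 -1.21, SE 0.33, adjusted p = 0.0176). Irgm2 (-1.38), Igtp (-1.39) and Gbp4 (-1.73) fell as well, and Igtp overlaps Irgm2 on chromosome 11. WT_induced replicates 1 and 6 stood apart from the other 10 WT libraries in each of these genes. Gbp4 was at 15.6 and 17.1 CPM there and at most at 3.42 CPM in the other 10, Irgm2 at 13.9 and 27.4 against at most 6.71 CPM, Igtp at 12.7 and 38.9 against at most 6.43 CPM, and Gbp3 at 12.2 and 26.5 against at most 7.77 CPM. Without replicate 6 the differences were -1.38 for Gbp4, -0.97 for Irgm2, -0.83 for Igtp and -0.86 for Gbp3, all 4 still called, and in control mice alone -0.41, -0.52, -0.48 and -0.47. Iigp1 (-1.83) was called with all libraries and was at -1.08 without WT_induced replicate 6, where it was not called. The number of GTPases called was 1 in control mice alone and 0 in induced mice alone. Of 23 class I antigen presentation genes 5 fell and 0 rose. Outside the named windows 1 of 6 members fell, and H2-K1 lies on chromosome 17. In the fits of each treatment alone 7 members were called in control and 0 in induced mice. H2-K1 was at 13.2, 14.9 and 18.1 CPM in R47H and 15.3, 20.4 and 163 CPM in WT libraries (log2 -1.03, SE 0.34, adjusted p = 0.0481). Its level was 38.6 to 163 CPM in WT_induced replicates 1, 4 and 6 and at most 22.2 CPM in the other 9 WT libraries, and the difference was -0.54 without replicate 6 and -0.30 in control mice (adjusted p = 0.0575). The class I list had a median of -0.28 in induced mice, -0.10 there without replicate 6 and -0.01 in control mice. Without replicate 6, 6 of its members fell and 4 rose over all libraries. Pan-myeloid genes, the markers of the cells in which these pathways are usually strongest, summed to 189 to 224 CPM in R47H and 190 to 421 CPM in WT libraries, the highest being WT_induced replicate 6. Their part in the interferon result was not tested.

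The interferon-stimulated response element as searched here, GAAA followed by any 2 bases and GAAA on either strand, occurred in 3.57% of all promoters matched. Of 21 tested interferon list members with an entry 11 hold a match, and of 7 called lower 4 do. Stretches of 3 genes that fell and hold a match before the start are shown, with matches in capitals, from build GRCm38.p6 of RefSeq. They lie at chr5:120907526-120907570 on the minus strand for Oas1a, at chr19:34640760-34640838 on the plus strand for Ifit1 and at chr4:156200850-156200921 on the minus strand for Isg15. The matches overlap one another in Oas1a and Isg15, and nothing about binding is shown.
Oas1a: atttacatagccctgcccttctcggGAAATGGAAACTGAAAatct
Ifit1: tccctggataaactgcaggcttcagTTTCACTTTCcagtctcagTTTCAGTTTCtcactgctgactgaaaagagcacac
Isg15: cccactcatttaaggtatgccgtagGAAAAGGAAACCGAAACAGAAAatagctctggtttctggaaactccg

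Ribosomal and respiratory genes were more often called higher than lower, against 6.59% of all tested genes called higher and 7.06% called lower. Proteasome (12.5% called), splicing (11.1%) and chaperone genes (3.33%) were called at shares below the 13.6% of all tested genes. Of 80 cytosolic ribosomal protein genes 13 rose and 3 fell (20% called), with a median of 0.04, and of 75 nuclear-encoded respiratory chain genes 11 rose and 5 fell (21.3% called), with a median of 0.02. With library totals as the only scaling 7 ribosomal and 6 respiratory genes rose, and both medians stayed above 0. Rpl10 was at 45.4, 47.8 and 53.8 CPM in R47H and 41.9, 42.9 and 46.5 CPM in WT libraries (log2 0.15, SE 0.02). Atp5j2, a subunit of ATP synthase, was at 50.5, 53.4 and 58.5 CPM in R47H and 41.1, 46.6 and 51.1 CPM in WT libraries (log2 0.22, SE 0.03, adjusted p = 1.08e-05). The largest changes in these lists were falls, of Rpl29 (-0.71) and the complex I gene Ndufs5 (-0.92), the first of them with the separate levels given above. Ndufs5 also took separate levels in R47H, 5 libraries at 1.48 to 2.31 CPM and 7 at 6.97 to 12.1 CPM. Ribosomal protein genes have many pseudogenes that could share their reads. Of 27 splicing and snRNP genes 1 rose and 2 fell (median -0.04), of 30 heat shock and ER chaperone genes 0 rose and 1 fell (median -0.07), and of 32 proteasome genes 3 rose and 1 fell (median 0.01).

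**Figure D5:**
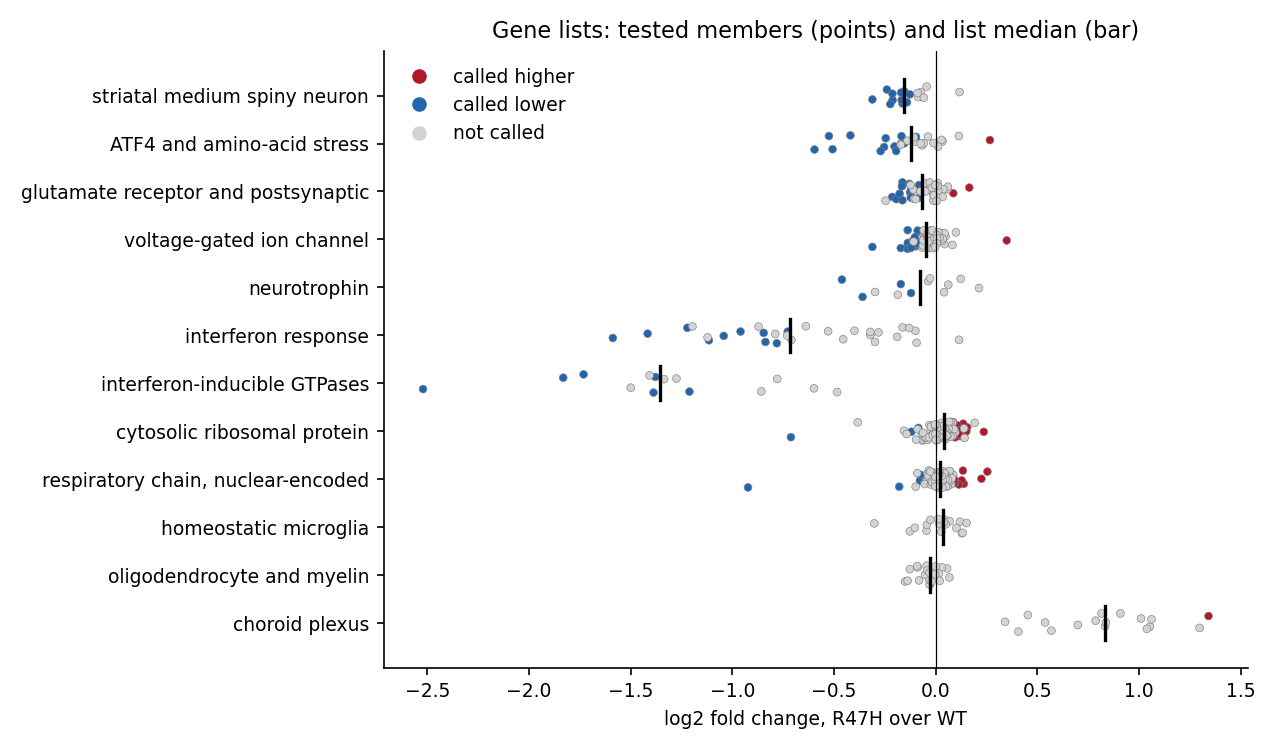
Log2 fold change of R47H over WT for the tested members of 12 gene lists (points, red if called higher, blue if called lower, grey if not called) with the list median as a bar. Striatal and ATF4 members are mostly called and below 0, interferon members are further below 0, and choroid plexus members are above 0 with 1 called.

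Markers of microglia, the cells in which TREM2 acts, are set against the share of all tested genes called. That share was 13.6% with all libraries, 4.35% in induced mice alone and 5.29% in control mice alone. Of 18 tested homeostatic microglial markers 0 were called by edgeR, with a median of 0.03, which pools -0.08 in induced and 0.12 in control mice, where 1 and 4 members were called in the fits alone. Their sum was 912 to 1045 CPM in R47H and 865 to 1074 CPM in WT libraries of induced mice, and 980 to 1062 CPM in R47H and 915 to 1020 CPM in WT libraries of control mice. Of 24 tested genes of disease-associated microglia, a state that depends on TREM2 in mice, 3 rose and 2 fell (20.8% called, median -0.025). Bulk counts do not say which cells the reads of either list came from, and the source of the called members was not tested. Apoe, the main lipid carrier of the brain, was at 828, 958 and 1072 CPM in R47H and 715, 852 and 1004 CPM in WT libraries (log2 0.17, SE 0.05, adjusted p = 0.0153), with 0.08 in induced and 0.26 in control mice. The growth factor gene Igf1 rose by 0.26 (SE 0.07), and Lpl fell by 0.49 (SE 0.11), lowest in the 4 R47H libraries named above by their Slc5a5 level. Of the Apoe and lipid transport list 4 of 24 rose and 2 fell, the cholesterol exporter gene Abca1 (0.16) and the cholesterol-storing enzyme gene Soat1 (0.16) among those that rose. Outside the named windows 0 of 12 members of that list were called by edgeR. Of 20 TREM2 signalling genes 1 was called, the PI3-kinase regulatory subunit gene Pik3r1 (0.12, SE 0.02). Of 38 lysosomal genes 4 rose and 2 fell, led by Ppt1 (0.24) and the galactosidase gene Glb1 (0.20), which are enzymes of lipid and glycan breakdown.

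Of 21 endothelial markers 4 fell and 0 rose (19% called, against 13.6% of all tested genes), with 19 of 21 below 0. Vwf, the von Willebrand factor gene, was at 12.9, 14.8 and 17.7 CPM in R47H and 14.6, 18.7 and 30 CPM in WT libraries (log2 -0.42, SE 0.10, adjusted p = 0.00401), and Ly6a, which interferon also induces, was at -0.56. Ly6a was at 17 and 17.6 CPM in WT_induced replicates 1 and 6 and at most at 9.98 CPM in the other 10 WT libraries, and it was at -0.46 without replicate 6 and -0.26 in control mice (adjusted p = 0.0539). Of 16 mural cell markers 2 fell and 0 rose (12.5% called, below the 13.6% of all tested genes). Those that fell were Rgs5 (-0.33), a pericyte regulator of G-protein signalling, and Abcc9 (-0.20), a subunit of a potassium channel. The mural list summed to 190 to 203 CPM in R47H and 208 to 237 CPM in WT libraries of induced mice. In control mice it summed to 196 to 220 CPM in R47H and 215 to 236 CPM in WT libraries. Of 3 tested blood leukocyte markers 1 fell, the T-cell co-receptor gene Cd4 (-0.32). Of 18 astrocyte markers 1 fell (5.56% called). Gfap, the astrocyte filament gene, was at 124, 141 and 154 CPM in R47H and 89.0, 105 and 267 CPM in WT libraries (log2 0.24, SE 0.14, not called). Of 22 oligodendrocyte and myelin genes and of 22 circadian clock genes 0 were called by edgeR.

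All 17 choroid plexus markers were above 0, with a median of 0.83, but 1 was called, Calml4 (1.34, SE 0.30, adjusted p = 0.00377). Ttr, the transthyretin gene of that epithelium, was at 5.76, 317 and 565 CPM in R47H and 5.14, 143 and 345 CPM in WT libraries (log2 1.04, SE 0.69, not called). The summed list was 211 to 1175 CPM in R47H and 204 to 730 CPM in WT libraries, so that the spread within each line exceeded the difference between them. With the list mean as a covariate 2267 genes were called in all, and 79.3% of the 2685 kept their call. With that covariate 3 interferon genes were called lower, against 10 without it. The part of this tissue in other results was not tested further.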

How the data were processed

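Cortical poly-A RNA of 24 mice was sequenced from TruSeq RNA v2 libraries, a kit that does not mark strand, per the labels' protocols. The authors deposited raw gene counts. STAR 2.5.2b, featureCounts 1.5.1 and build mm10 are named in the submitters' processing notes; the sources used here give neither its options nor the annotation release. Mitochondrial-genome genes held 0 counts and were not tested.

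Counts were scaled by TMM, filtered by filterByExpr over the 4 groups and fitted with edgeR 4.0.16 (R 4.3.3, robust quasi-likelihood, line and treatment as additive terms). Genes with a Benjamini-Hochberg adjusted p below 0.05 over all 19678 tested genes were called, and SE is the log2 difference over the root of F. Each treatment alone and the difference between treatments were fitted likewise. Single values were compared by 100000 permutations within treatment, two-sided. On simulated counts of 19678 genes, 74% of 1.2-fold and 96% of 1.5-fold line differences were recovered, with 3 false calls. Those counts were drawn independently for each gene and library, with 50 changed genes per fold size, all above 1 CPM. Spread shared by genes, separate levels and outlying libraries were not simulated, so the false calls do not carry over to these data. Alternatives used DESeq2 1.42.0 and limma 3.58.1. Depth was 27933505 to 56082520 counts per library, and intervals cover counting error only.

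Named genes were Trem2, the 12 rises and 12 falls of lowest p with a proper symbol, the 6 and 6 of largest change at 1 CPM or more, up to 4 called genes of lowest p per list and per named window, and a short panel. Other examples, the rule for separate levels and the choroid plexus covariate were chosen after their values were seen. Members and lists were chosen with earlier results of these data known. Shared exon bases were computed from GENCODE.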

Additional observations from a re-analysis of the deposited data

Results flagged for a closer look

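In groups of 6 libraries, 7 of 104 sets of values had a highest or lowest library whose gap to the next, as a share of the group's range, exceeded Dixon's 95% critical value, and chance flags about 1 in 20 groups. Of these, 5 concerned WT_induced replicate 6. Its Trem2 level was 9.32 CPM, with the next library of its group at 6.85 CPM. Its pan-myeloid list summed to 421 CPM (next 213 CPM), its blood leukocyte list to 21.7 CPM (next 12.1 CPM), its reactive astrocyte list to 807 CPM (next 370 CPM) and its interferon response list to 446 CPM (next 193 CPM). The meningeal fibroblast list was highest in R47H_induced replicate 5, at 420.2 CPM (next 355 CPM). The pan-myeloid list was lowest in WT_control replicate 4, at 197 CPM (next 206 CPM).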

How the results depend on the processing

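No paired analysis was possible because the replicate numbers were given in accession order and pair no mice. Leaving out each library in turn gave 1189 to 1353 genes called higher, 1240 to 1453 called lower and 228 to 255 called on chromosome 17. It gave 12 to 13 striatal, 13 to 16 ATF4, 12 to 16 postsynaptic, 14 to 19 channel, 8 to 16 interferon and 3 to 7 GTPase genes lower, 13 to 15 ribosomal and 11 to 13 respiratory genes higher, 0 to 1 calls between treatments and 0.12 to 0.22 for Trem2.
With the striatal list mean as covariate, 573 genes were higher, 453 lower and 127 called on chromosome 17, with 1 striatal, 7 ATF4, 3 postsynaptic, 5 channel, 5 interferon and 1 GTPase gene lower and 4 ribosomal genes higher; Adcy5 (0.0013) turned positive. For changes of at least 1.2-fold, 81 were higher, 89 lower and 63 on chromosome 17. Called lower were 2 ATF4 genes, 1 interferon gene and 0 striatal, postsynaptic, channel or GTPase genes. Called higher were 0 ribosomal and 0 respiratory genes, and the remaining lists were not counted at that setting. At an adjusted p below 0.01, 672 were higher and 741 lower, with 11 channel, 2 interferon, 0 GTPase and 8 ribosomal genes. Below 0.1, 20 postsynaptic, 17 interferon and 10 GTPase genes were called. Library totals alone gave 685 higher, 7 ribosomal and 6 respiratory genes. Without the named windows, 3 striatal, 9 ATF4, 7 postsynaptic, 9 channel and 6 respiratory genes were called. GTPase calls were 10 (DESeq2), 2 (limma-voom), 3 (sample weights), 12 (rRNA-like share), 2 (oligodendrocyte mean) and 1 (choroid plexus mean). Interferon calls were 20 with the rRNA-like share and 3 with the choroid plexus mean. DESeq2 called 3 genes between treatments. Trem2 passed without WT_induced replicate 6, with sample weights (0.19) and the choroid plexus mean (0.22), where Ttr was at -0.58. Tyrobp, not called at -0.02, was at 0.015 with limma-voom, 0.074 with sample weights, 0.037 with the oligodendrocyte mean and 0.075 with the choroid plexus mean, and at -0.050 to 0.12 when libraries were left out. The cause was not tested.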
